A study of Mus musculus with 18 samples.

Results

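Collagen chain genes encode the subunits of the collagens. The set described here is every gene of the count table whose symbol has the form Col, a type number, the letter a and a chain number, which gave 44 of 55486 genes. They were taken by name alone, and 39 of them passed the filter on low counts and were tested. Of the 44 genes, 11 belong to the fibrillar class, 9 to the basement membrane class, 6 to type VI, 3 to the short-chain network class, 9 to the fibril-associated collagens with interrupted triple helices (FACIT), 4 to the transmembrane class and 2 to no class used here.

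RNA sequencing was done on normal fibroblasts (NFs) of the mammary gland of FVB/n mice, sorted by the surface peptidase CD26. Cells came from pooled glands of several adult female mice per sort, gated as EpCAM- CD49f- CD45- CD31-, and the study plated NFs on dishes coated with type I collagen protein. CD26- NFs (replicates 1 to 3) and CD26+ NFs (replicates 10 to 12) spent 7 days in control medium, and both cell types (replicates 4 to 9 for CD26-, 13 to 18 for CD26+) spent 7 days in tumour conditioned medium (CM). All tumour CM came from tumour lines of a mouse model of invasive lobular carcinoma in which the Wap promoter drives Cre in mammary epithelium. Within each cell type the 6 CM libraries had CM of the lines 13-MCB-17, 10-SJK-221, 18-MCB-12, 13-MCB-44, 13-MCB-90 and 13-MCB-138, in that order of replicate number, 1 library per line. The labels do not say that the control cultures or the CM cultures were separate sorts, so p-values measure the spread between these libraries, which for CM includes the lines.

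A collagen molecule is a triple helix of 3 chains, which come from 1 gene in some collagens, such as type III, and from several genes in others, such as type I. Fibrillar collagens assemble into the tensile fibrils of connective tissue, type IV chains form the sheet-like network of basement membranes, type VI forms beaded filaments in the matrix next to them, and FACIT collagens sit on fibril surfaces. Fibroblasts are the main source of the fibrillar collagens in the mammary stroma.

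Libraries held 9725723 to 14585349 counts. The gene of the sort marker, Dpp4, was at or near 0 CPM (counts scaled to library size) in both control groups (0 to 0.171 CPM in CD26- and 0 to 0.0809 in CD26+ libraries) and reached 0.0776 to 0.881 CPM in CD26- and 0.715 to 7.80 CPM in CD26+ libraries in CM, so it gives no check of the labels in control medium. Of 8 fibroblast markers 7 were higher in CD26+ NFs in control medium, and the mesenchymal filament gene Vim was high in every group (1756 ± 116 CPM in CD26- and 2389.8 ± 95.7 in CD26+ control libraries, mean ± SD, n = 3). Of the lists for other cell types, the 7 endothelial genes summed to 2.27 to 9.16 CPM per library, with Cldn5 at or near 0 in every group. The 7 immune genes summed to 14.6 to 29.7 CPM, most of it from Csf1r (21.6 ± 0.595 CPM in CD26- and 17.5 ± 0.986 in CD26+ control libraries), with Ptprc, Itgam, Cd3e and Cd79a at or near 0. For CD26+ against CD26- NFs, 2 of 4 tested endothelial genes passed as lower in control libraries and 1 in CM, and 1 of 3 tested immune genes in each medium. Luminal epithelial genes were well above 0 and are given beside the comparison of the cell types.

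Collagen chains took 3.13% ± 0.168 of all counts in CD26- control libraries (SD, n = 3) and 2.45% ± 0.775 in CD26- CM libraries (SD, n = 6). In CD26+ NFs they took 8.81% ± 0.716 in control medium (SD, n = 3) and 5.01% ± 1.40 in CM (SD, n = 6). Every CD26+ control library (8.03% to 9.45%) lay above every CD26+ CM library (3.68% to 7.05%), whereas the CD26- control range of 3.01% to 3.32% lay inside that of the CD26- CM libraries, 1.67% to 3.76%. Types I and III alone (Col1a1, Col1a2 and Col3a1) made up 72.0% ± 1.39 of the collagen counts in CD26+ control libraries but 48.9% ± 0.512 in CD26- control libraries. These shares are descriptions, and they carry no test.

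**Figure D1:**
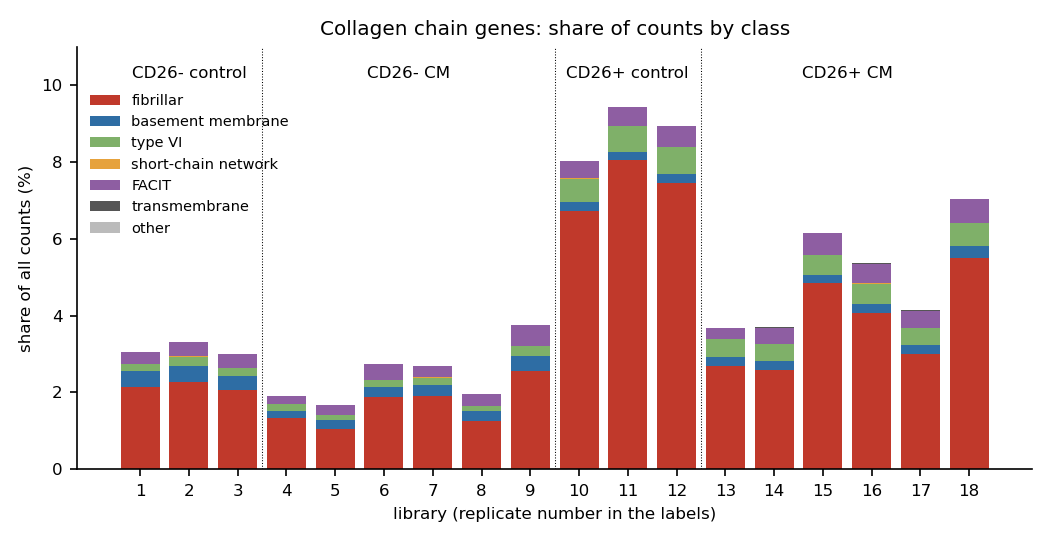
Share of all counts (%) taken by collagen chain genes in each of the 18 libraries, stacked by collagen class, with libraries in the order of the replicate numbers. Fibrillar chains take most of every bar, and the 3 CD26+ control bars (8.03% to 9.45%) stand above all others.

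Levels ran over several orders of magnitude. By mean CPM per kb of exon over the 18 libraries the order began with Col1a1 (1886 CPM per kb), Col3a1 (714), Col1a2 (682), Col5a2 (433) and Col6a1 (324). The order depended on the group: per kb, Col3a1 was at 289.6 in CD26- control libraries, below Col5a2 at 419.7, and at 2391 in CD26+ control libraries, above Col5a2 at 600.3. The chains of basement membrane type IV, Col4a1 and Col4a2, reached 226 and 158 CPM per kb in CD26- control libraries. At the low end, 13 of the 44 genes averaged under 1 CPM.

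The first comparison set CD26+ against CD26- NFs in each medium. Most fibrillar chains and part of the type VI chains were higher in CD26+ NFs, and in control medium 7 of 9 basement membrane chains were lower. Among these 7, Col4a3 and Col4a4 passed the count filter only through CD26- libraries. FDR is here the p of edgeR's quasi-likelihood test after Benjamini-Hochberg adjustment over all genes tested. At an FDR under 0.05, CD26+ NFs had 19 of 39 tested collagen genes up and 8 down in control medium. Among all 14273 genes 25% were higher and 25.4% lower. In tumour CM 20 of 39 were higher and 5 lower, against 29.3% higher and 29.3% lower of all genes. The median log2 fold change over the tested collagens was 0.91 in control medium and 0.96 in CM, against values within 0.01 of 0 over all genes. Both an FDR under 0.05 and a log2 fold change beyond 2 or -2 were reached by 10 of 39 in control medium (5.97% of all genes) and 5 of 39 in CM (4.16% of all genes). Of the 39 tested genes 4 passed the count filter through 1 group only, Col2a1 and Col9a2 through CD26+ control, Col6a5 through CD26+ CM and Col19a1 through CD26- CM libraries. Such a gene had to be high in that group, so its calls against that group are read as no support. Without these 4 genes the counts were 17 higher and 8 lower of 35 in control medium and 19 higher and 4 lower of 35 in CM. Both limits were then reached by 8 of 35 and 4 of 35. The lower calls left include Col4a3 and Col4a4 in both media and Col25a1 in CM. Col4a3 and Col4a4 reached the level of the filter in 0 CD26+ libraries and Col25a1 in 1, so these calls are read as no support either. With the CM line as a replicate block 23 of 39 were higher and 6 lower in CM, where 63% of all genes passed.

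Type I collagen is the main tensile collagen, a trimer of Col1a1 and Col1a2 chains. Col1a1 (ENSMUSG00000001506, GRCm38 chr11:94936224-94953042, plus strand) had 6970.3, 7784 and 6301 CPM in the CD26- control libraries and 23574, 29327 and 27284 CPM in the CD26+ control libraries. The groups did not overlap, and the log2 fold change was 1.93 ± 0.37 (SE, FDR 0.00034). In tumour CM the lowest, median and highest Col1a1 values were 2879, 5260.3 and 9687 CPM in CD26- and 9651, 13958 and 20388 CPM in CD26+ NFs. These ranges overlapped at their ends, and the groups differed at a log2 fold change of 1.40 ± 0.26 (SE, FDR 0.00018). Col1a2 (ENSMUSG00000029661, GRCm38 chr6:4504814-4541544, plus strand) was higher by 1.83 ± 0.28 (SE, FDR 3.03e-05) in control medium and by 1.37 ± 0.19 (SE, FDR 9.46e-06) in CM on the log2 scale, with no overlap in either medium.

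Type III collagen, a trimer of Col3a1 that often shares fibrils with type I, was higher in CD26+ NFs in both media. Col3a1 (ENSMUSG00000026043, GRCm38 chr1:45311538-45349706, plus strand) had 2729, 2817 and 2983 CPM in CD26- and 20174, 27115 and 23116 CPM in CD26+ control libraries. Its log2 fold change was 3.05 ± 0.50 (SE, FDR 7.07e-05) in control medium and 2.43 ± 0.35 (SE, FDR 1.06e-05) in CM, a fold of 8.26 and 5.38. Col24a1 (ENSMUSG00000028197, GRCm38 chr3:145292472-145552011, plus strand), a minor fibrillar chain, had 1.16, 1.20 and 1.15 CPM in CD26- and 19.7, 26.4 and 21.1 CPM in CD26+ control libraries. Its values were the widest apart of the fibrillar class, at a log2 fold change of 4.25 ± 0.33 (SE, FDR 3.04e-08) in control medium and 3.23 ± 0.17 (SE, FDR 2e-10) in CM.

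Of the 11 fibrillar genes, 9 passed as higher in CD26+ cells without CM (8 of 10 leaving out Col2a1) and 8 with CM, and none passed as lower. Col5a1, a chain of the type V collagen that limits fibril width, had log2 fold changes of 1.47 (FDR 0.000204) in control medium and 0.96 (FDR 0.00029) in CM. Col5a3, its less common partner, had 0.93 (FDR 0.00133) and 1.88 (FDR 1.95e-08). The type V chain Col5a2 did not pass in either medium, at 0.52 ± 0.26 (SE, FDR 0.106) and 0.34 ± 0.18 (SE, FDR 0.122), although its 3 CD26+ control libraries (5253, 5929.9 and 6089.8 CPM) lay above the CD26- ones (4002, 4111 and 3963 CPM). With CM line as a replicate block Col5a2 passed in CM, at 0.34 ± 0.04 (SE, FDR 6.34e-06), as it did without replicate 9 (FDR 0.0291). Col11a1, a type XI chain, gave 0.18 (FDR 0.752) and -0.13 (FDR 0.749), so that it passed in neither medium. Col27a1, a minor fibrillar chain, gave 0.83 (FDR 0.0306) and 1.13 (FDR 0.000447), and lost its call in control medium without replicate 2, 3, 10 or 11 (FDR up to 0.102). Col2a1, the chain of cartilage type II collagen, was low throughout and reached 5.02, 5.41 and 3.86 CPM in CD26+ control libraries, through which it passed the filter, against 0.484, 0.598 and 0.744 in CD26- ones.

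Of the type VI chains 3 of 5 tested genes were higher in CD26+ NFs in control medium, and none was lower. Col6a1, Col6a2 and Col6a3, the chains of the common type VI trimer, had log2 fold changes of 2.04 (FDR 9.18e-07), 2.25 (FDR 8.27e-07) and 1.18 (FDR 0.000288) in control medium. Values for Col6a2 were 395, 480.0 and 384 CPM in CD26- and 1789, 2139 and 2043 CPM in CD26+ control libraries. The CM values for these 3 chains were 1.81 (FDR 3.47e-08), 1.86 (FDR 6.38e-08) and 1.44 (FDR 6.27e-07), and in CM 4 of 4 tested type VI genes passed as higher, leaving out Col6a5, which passed the filter only through CD26+ CM libraries. The alternative chains Col6a5 and Col6a6 were low, and Col6a5 rested on 0 to 4 counts per CD26- library against 6 to 70 in CD26+ libraries in CM.

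Basement membrane chains went the other way in control medium, where 7 of 9 were lower, 1 was higher and 1 did not pass. Among the 7, Col4a3 and Col4a4 passed the count filter only through CD26- libraries, so their lower calls are read as no support in either medium. In CM 3 were lower (Col4a3, Col4a4 and Col7a1), of which only Col7a1 is left without Col4a3 and Col4a4. In CM 2 were higher (Col15a1 and Col4a5), and the Col4a5 call (0.37, FDR 0.0364) was lost without replicate 4, 5, 8, 13 or 16 (FDR up to 0.0896). Col4a1 had 1660.3, 1840.4 and 1559.8 CPM in CD26- and 926, 784 and 944 CPM in CD26+ control libraries, a log2 fold change of -0.93 ± 0.22 (SE, FDR 0.0018). The partner chain Col4a2 gave -0.88 (FDR 0.00422). In CM the same chains were at -0.21 ± 0.15 (SE, FDR 0.262) and -0.27 ± 0.16 (SE, FDR 0.157), past no threshold, and Col4a2 passed with the line as a replicate block (-0.24 ± 0.08, SE, FDR 0.0192). Col18a1, the core protein whose end releases endostatin, was lower in control medium, at -1.18 ± 0.21 (SE, FDR 0.000126) on the log2 scale, and did not pass in CM, at -0.02 (FDR 0.906). Col7a1, the chain of the anchoring fibrils below epithelia, was lower in both media, at -0.95 (FDR 0.00866) and -0.91 (FDR 0.000752), and missed the threshold in control medium without replicate 11 (FDR 0.0514). Col4a3 and Col4a4, chains of the type IV network of kidney and lung, gave -1.68 (FDR 0.00399) and -1.87 (FDR 0.00879) in control medium, and the latter missed it without replicate 1 (FDR 0.0645). They had 8 to 21 and 12 to 29 counts per CD26- control library, through which they passed the filter, and 3 to 7 and 2 to 11 per CD26+ one. Of this class Col15a1 was higher in CD26+ NFs, with 310.1, 319 and 334 CPM in CD26- and 547, 611 and 647 CPM in CD26+ control libraries (0.91, FDR 0.000614, and 1.21, FDR 5.99e-07 in CM). In single cells that were not cultured, the study lists Col15a1 and Col5a3, with Col4a1, Col4a2 and Col18a1, among the main collagens of CD26- NFs. Here Col15a1 and Col5a3 were higher in CD26+ NFs after culture, and the study reports that CD26 fell rapidly in cultured CD26+ NFs.

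The genes Col4a1 and Col4a2 lie head to head on chromosome 8 and overlap at their first bases. Their overlap is shown because reads there cannot be told apart unless strand is counted, and the strand setting of the counting is not given in the sources used here. On the plus strand the annotated starts share 22 bases, chr8:11312805-11312826 (sequence from RefSeq, GRCm38.p6):

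Col4a1 and Col4a2 overlap: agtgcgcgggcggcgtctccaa

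Among FACIT chains, Col14a1, which binds type I fibrils, had 4.07, 2.65 and 2.84 CPM in CD26- and 106, 155 and 107 CPM in CD26+ control libraries. The log2 fold change was 5.28 ± 0.57 (SE, FDR 9.36e-07) in control medium and 3.08 ± 0.39 (SE, FDR 2.87e-06) in CM. Col16a1 was higher by 1.61 (FDR 8.24e-09) and 1.38 (FDR 4.55e-10), with 145 ± 17.0 CPM in CD26- and 443 ± 21.3 CPM in CD26+ control libraries (SD, n = 3 each). Col12a1, the most abundant FACIT gene by CPM per kb, did not pass in either medium (0.54, FDR 0.198 and 0.56, FDR 0.0562), but passed in CM with the replicate block (0.60 ± 0.08, SE, FDR 1.99e-05) or without replicate 6, 9 or 13 (FDR as low as 0.00547). The type IX chain Col9a2 had 0 or 1 counts in each CD26- control library and 11 to 18 in each CD26+ one, and passed the filter only through the latter. Col19a1, which passed the filter only through CD26- CM libraries, had 4 to 15 counts in each of those and 1 to 6 in each CD26+ CM library.

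Transmembrane collagens span the plasma membrane and are shed. Col23a1 (ENSMUSG00000063564, GRCm38 chr11:51289920-51583918, plus strand) had 2.61, 3.25 and 2.71 CPM in CD26- and 50.5, 55.9 and 46.9 CPM in CD26+ control libraries, a log2 fold change of 4.16 ± 0.29 (SE, FDR 8.01e-09) against 1.78 ± 0.17 (SE, FDR 1.29e-07) in CM. Col25a1, at 1.06, 1.11 and 1.22 CPM in CD26- and 0.728, 0.296 and 0.594 in CD26+ control libraries, was lower in CM at -1.43 (FDR 0.00211), and its value in control medium was -1.07 (FDR 0.0927). It passed the count filter through CD26- libraries, with 1 CD26+ library at that level, so its lower call is read as no support. Among short-chain collagens, Col8a2 was higher at 2.88 (FDR 0.00416) and 1.78 (FDR 0.0171), and Col10a1, known from hypertrophic cartilage, was lower in control medium at -1.18 (FDR 0.0416). Col28a1, outside the named classes, was higher at 3.54 (FDR 1.74e-05) and 3.99 (FDR 2.46e-08). Without replicate 18 the Col8a2 call in CM was lost (FDR 0.0725), and the Col10a1 call was lost without replicate 1, 3, 10, 11 or 12 (FDR up to 0.153).

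**Figure D2:**
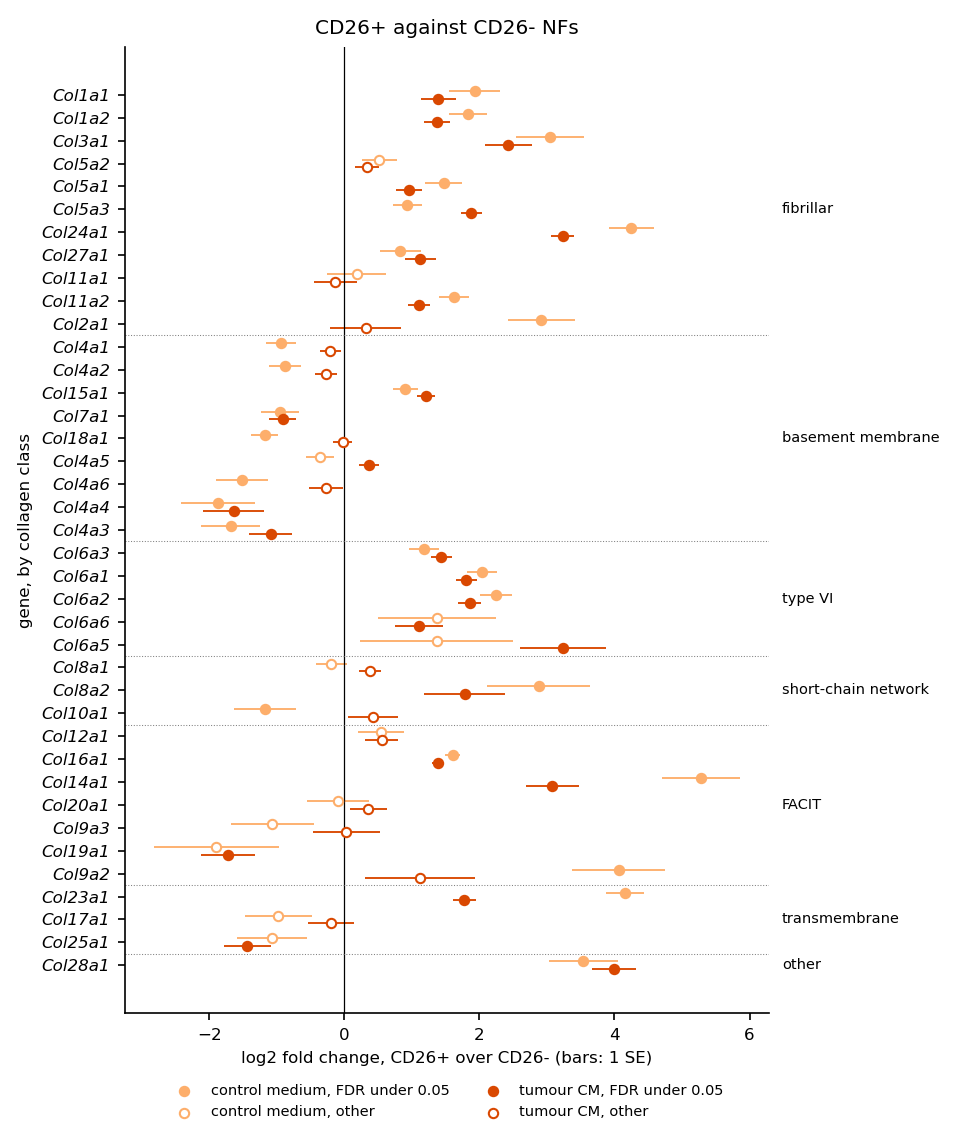
Log2 fold change of CD26+ over CD26- NFs for the 39 tested collagen genes, ordered by class and by level, in control medium (light) and tumour CM (dark), with bars of 1 SE and filled points for an FDR under 0.05. Fibrillar and type VI genes lie mainly right of 0, and 7 of the 9 basement membrane genes lie left of 0 with filled light points. Of these 7, Col4a3 and Col4a4 passed the count filter only through CD26- libraries.

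Luminal epithelial genes were also lower in CD26+ NFs, although the gate removed EpCAM+ and CD49f+ cells. All 7 tested of the 8 luminal markers were lower in CD26+ NFs in both media, and 2 of the 5 tested basal markers were lower in control medium and 3 in CM. The summed CPM of the luminal list ran from 3403 to 3844 in CD26- control, 2315 to 3675 in CD26- CM, 502 to 954 in CD26+ control and 489 to 1175 in CD26+ CM libraries, without overlap between the cell types. Of this list Elf5, a transcription factor of the luminal lineage, was at or near 0 in every group. With the log2 luminal sum as a covariate, an alternative chosen after seeing the data, 4 of 39 collagen genes were past the FDR in control medium (4 higher and 0 lower) and 6 in CM (6 higher and 0 lower). In the same fits the share of all genes past the FDR went from 50.3% to 1.5% in control medium and from 58.6% to 2.96% in CM. The covariate and the cell type cannot be told apart here, since their values do not overlap. The genes past it in control medium were Col6a2, Col16a1, Col23a1 and Col24a1, and those in CM were Col5a3, Col6a1, Col6a2, Col16a1, Col24a1 and Col28a1. Col1a1 was then at 1.59 ± 0.81 (SE, FDR 0.381) and Col3a1 at 2.32 ± 1.01 (SE, FDR 0.292) in control medium. In a bulk library fewer cells of a type and less RNA per cell cannot be told apart.

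Pericyte and smooth muscle genes and osteoblast genes differed too. The summed CPM of the pericyte list was 200.3 to 214 in CD26- and 61.6 to 81.9 in CD26+ control libraries, with 4 of 6 tested genes lower, and in CM 3 were lower and 1 higher (90.1 to 202 CPM in CD26- and 63.3 to 107 CPM in CD26+ libraries). The osteoblast list was at 90.7 to 97.1 CPM in CD26- and 325 to 403 CPM in CD26+ control libraries, with 3 of 4 tested genes higher there and in CM (75.5 to 99.0 and 111 to 239.7 CPM), while its defining gene Bglap was at or near 0 in every group. Of the skeletal muscle list 1 of 5 tested genes was lower in control medium (51.4 to 77.7 CPM in CD26- and 15.3 to 22.7 CPM in CD26+ libraries) and 5 of 5 in CM (46.7 to 87.1 and 9.08 to 24.6 CPM), with Ckm at or near 0 in every group. Of the Schwann list 2 of 4 tested genes were lower in each medium (26.5 to 30.9 CPM in CD26- and 5.11 to 9.47 CPM in CD26+ control libraries). All 3 tested adipocyte genes were higher in each medium (14.3 to 16.0 and 22.3 to 37.8 CPM in control libraries), and of the 2 tested chondrocyte genes 1 was lower in CM. Their part in the collagen results was not tested.

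The second comparison asked how tumour CM changed collagen expression in each cell type. The type I chains fell in CD26+ NFs, and in both cell types Col3a1 and Col27a1 fell while Col24a1 rose. Col6a6 passed as higher in both, but it passed the count filter only through CM libraries, so these calls are read as no support. In CD26- NFs 5 of 39 tested genes were higher and 5 lower in CM, where 7.88% of all genes were higher and 7.28% lower. In CD26+ NFs 4 were higher and 14 lower, where 15.2% of all genes were higher and 13.4% lower. Without the 4 genes that passed the filter through 1 group, 4 were higher and 5 lower of 35 in CD26- NFs. In CD26+ NFs 3 were then higher and 12 lower. In each cell type 2 of 35 were past the FDR and beyond a log2 fold change of 2 or -2. Col6a6 is still among the higher genes and among these 2 in each cell type. Both limits, the FDR and the log2 fold change beyond 2 or -2, were passed by 2 of 39 in CD26- NFs (0.904% of all genes) and 4 of 39 in CD26+ NFs (2.01%). The median log2 fold change over the tested collagens was -0.33 in CD26- and -0.06 in CD26+ NFs, where that over all genes was within 0.01 of 0. These counts depended on single libraries. In CD26- NFs the 10 calls became 4 without replicate 1 and 3 without replicate 3, while those over all genes went from 2164 to 1099 and 825. In CD26+ NFs the 18 calls became 8 without replicate 11, 10 without replicate 12 and 11 without replicate 10, 13, 14 or 17, while those over all genes went from 4087 to 2756 without replicate 11, 2966 without replicate 12 and 3006 to 3572 without the others.

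Fibrillar chains in CD26+ NFs gave 7 lower and 2 higher of 11 tested genes, or 6 lower and 2 higher of 10 leaving out Col2a1. Col3a1 fell from the control values given above to CM values with a lowest, median and highest of 3112, 5526 and 12952 CPM, below every control library. The log2 fold change was -1.82 ± 0.39 (SE, FDR 0.00203). Col1a1 gave -0.86 ± 0.31 (SE, FDR 0.0415) and Col1a2 gave -0.68 ± 0.23 (SE, FDR 0.0326), the CM libraries lying below the 3 controls in both. The Col1a1 call was lost without any one of replicates 10, 11, 12, 13, 14 and 17 (FDR up to 0.123), and the Col1a2 call without replicate 11, 12, 13, 14 or 17 (FDR up to 0.114). Col2a1 had 5.02, 5.41 and 3.86 CPM in the controls, through which it passed the filter, and a lowest, median and highest of 0, 0.425 and 1.34 CPM in CM. Both tested genes of the 6 chondrocyte markers, Matn3 and Sox9, were lower too (the list summed to 81.6 to 88.5 CPM in CD26+ control and 53.5 to 80.3 CPM in CD26+ CM libraries), and Matn1, Cnmd and Hapln1 were at or near 0 in every group. Col5a1, Col11a2 and Col27a1, further fibrillar chains, gave -0.80 (FDR 0.0126), -0.48 (FDR 0.0456) and -0.84 (FDR 0.0202). Of these, Col5a1 lost its call without replicate 11 (FDR 0.055), Col27a1 without replicate 10 or 11 (FDR up to 0.0718) and Col11a2 without any of 12 libraries, replicates 2, 6, 7, 9 to 17 (FDR up to 0.202), and with no filter on low counts. Osteoblast genes moved with these chains: their summed CPM was 325 to 403 in CD26+ control and 111 to 239.7 in CD26+ CM libraries, with 4 of 4 tested genes lower. Of the basal list 2 of 5 tested genes were lower (224 to 311 and 90.0 to 329.8 CPM), and of the fibroblast list 3 of 8 were higher and 2 lower. The pericyte (61.6 to 81.9 and 63.3 to 107 CPM), adipocyte (22.3 to 37.8 and 32.7 to 89.1 CPM) and endothelial lists (2.27 to 2.96 and 2.27 to 4.44 CPM) each had 1 gene higher. The part of these lists in the collagen results was not tested.

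In CD26- NFs 2 of the 11 fibrillar chains were lower in CM and 1 was higher. Col3a1 had a lowest, median and highest of 617, 1072 and 2278 CPM in CM, below its controls, at a log2 fold change of -1.20 ± 0.39 (SE, FDR 0.0447). That call was lost without replicate 1, 2, 3, 4, 5, 6, 8, 10, 11, 12 or 15 (FDR up to 0.137) and with the luminal covariate (FDR 0.051). Col27a1 fell by 1.13 ± 0.27 (SE, FDR 0.0104) on the log2 scale, and lost its call without replicate 1 (FDR 0.0634). For Col1a1 and Col1a2 the values were -0.33 ± 0.31 (SE, FDR 0.51) and -0.22 ± 0.23 (SE, FDR 0.558), which did not pass. Col5a2 passed in neither cell type (-0.27, FDR 0.442 in CD26- and -0.45, FDR 0.138 in CD26+ NFs), and without replicate 18 it passed in CD26+ NFs (FDR 0.0419).

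Markers of other cell types also moved with CM in CD26- NFs. Of the skeletal muscle list 4 of 5 tested genes were higher (51.4 to 77.7 CPM in CD26- control and 46.7 to 87.1 CPM in CD26- CM libraries as a sum), and of the osteoblast list 2 of 4 were lower (90.7 to 97.1 and 75.5 to 99.0 CPM). Of the pericyte and smooth muscle list 1 of 6 was higher and 2 lower (200.3 to 214 and 90.1 to 202 CPM), and of the basal list 1 of 5 was lower (659 to 848 and 263 to 559 CPM). The endothelial and the Schwann list each had 1 gene higher, the fibroblast list had 4 of 8, and none of the 7 tested luminal genes passed. The part of these lists in the collagen results was not tested.

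Col24a1, unlike the type I and type III chains, rose in both cell types. In CD26- NFs it went from 1.16, 1.20 and 1.15 CPM to a lowest, median and highest of 6.10, 7.19 and 11.9 CPM, a log2 fold change of 2.78 ± 0.33 (SE, FDR 0.000123). In CD26+ NFs it went from 19.7, 26.4 and 21.1 CPM to 48.0, 79.3 and 92.1 CPM, a log2 fold change of 1.76 ± 0.20 (SE, FDR 7.1e-06). No CM library overlapped a control library in either cell type. Upstream sequences of the opposed pair Col3a1 and Col24a1 are printed here because these 2 fibrillar genes moved in opposite directions in CM. Each is the 250 bases before the annotated start on the gene's strand (RefSeq, GRCm38.p6), with capitals for matches on either strand to the TATA box letters TATAAA, to the CCAAT box letters CCAAT and to the GC box letters GGGCGG, and neither overlaps an exon of the GENCODE M21 annotation (Col3a1 chr1:45311288-45311537, Col24a1 chr3:145292222-145292471, plus strand):

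Col3a1: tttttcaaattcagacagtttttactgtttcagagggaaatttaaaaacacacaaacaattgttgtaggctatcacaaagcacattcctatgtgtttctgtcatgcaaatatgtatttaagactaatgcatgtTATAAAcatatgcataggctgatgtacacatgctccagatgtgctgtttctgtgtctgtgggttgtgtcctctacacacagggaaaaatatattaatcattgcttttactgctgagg
Col24a1: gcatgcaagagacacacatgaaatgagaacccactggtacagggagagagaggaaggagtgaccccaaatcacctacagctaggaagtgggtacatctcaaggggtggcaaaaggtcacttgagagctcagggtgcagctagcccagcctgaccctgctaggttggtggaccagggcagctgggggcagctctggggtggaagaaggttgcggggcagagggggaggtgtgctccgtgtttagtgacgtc

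The Col3a1 window held a single TATAAA and the Col24a1 window no match to the 3 motifs. Over 32851 promoter windows of the same length, 12.4% held TATAAA, 33.8% CCAAT and 32.7% GGGCGG. Of the 38 windows of 35 collagen genes in that table, the shares were 13.2%, 34.2% and 57.9%. A match is only a match of letters.

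Of the 9 basement membrane genes, 2 were lower in CM in CD26- NFs and 1 in CD26+ NFs, and none was higher. Col18a1 fell in CD26- NFs from 248, 219.9 and 217 CPM to a lowest, median and highest of 110.3, 137 and 174 CPM (-0.67 ± 0.17, SE, FDR 0.0152), a call lost without replicate 1 or 3 (FDR up to 0.081). Col15a1, a collagen that links basement membrane to fibrils, was at -0.60 (FDR 0.0173) in CD26- NFs and also lost its call without replicate 1 or 3 (FDR up to 0.0791). Col7a1 was at -0.66 (FDR 0.0463) in CD26+ NFs, a call lost without replicate 2, 3, 5, 8, 9, 10, 12, 13, 14, 15 or 17 (FDR up to 0.158). In CD26- NFs Col7a1 was at -0.69 (FDR 0.0534), and passed as lower with DESeq2, with no filter on low counts and without replicate 7 or 16. Col4a1 was at -0.46 (FDR 0.102) in CD26- and 0.27 (FDR 0.321) in CD26+ NFs. Without replicate 9 Col4a1 (FDR 0.00869), Col4a2 (FDR 0.00973) and Col4a5 (FDR 0.026) passed as lower in CD26- NFs. Among type VI chains Col6a1 and Col6a2 were lower in CD26+ NFs (-0.50, FDR 0.0462 and -0.59, FDR 0.0297), the Col6a1 call was lost without replicate 3, 4, 6, 7, 10, 11, 12, 13, 14, 15 or 17 (FDR up to 0.131), and the Col6a2 call without replicate 11, 12, 14 or 17 (FDR up to 0.0987). Col6a6 was higher in both cell types, at 1 to 3 counts per CD26- control library and 8 to 26 per CM library (2.49, FDR 0.023), and at 4 to 11 and 10 to 66 counts in CD26+ NFs (2.23, FDR 0.00367). Its CD26- call was lost without any one of the 3 controls (FDR up to 0.0955) and with the luminal covariate (FDR 0.051). Col6a6 passed the count filter only through CM libraries, so its calls against the controls are read as no support.

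Among FACIT genes, Col14a1 fell in CD26+ NFs to a lowest, median and highest of 14.8, 29.2 and 58.6 CPM, below its 3 controls (-1.88 ± 0.36, SE, FDR 0.000936). In CD26- NFs it was at 0.32 (FDR 0.768). Col9a2 had 11 to 18 counts per CD26+ control library, the group through which it passed the filter, and 0 to 3 per CD26+ CM library. Col16a1 rose in CD26- NFs, from 159, 151 and 126 CPM to 172, 193 and 212 CPM as lowest, median and highest (0.41 ± 0.10, SE, FDR 0.00931), and lost its call without replicate 3 (FDR 0.0814). Col8a2 fell in CD26+ NFs (-2.01, FDR 0.0138, FDR 0.0542 without replicate 11 and 0.0503 with only the 2 groups fitted), while Col10a1 fell in CD26- NFs (-1.63, FDR 0.0111, FDR 0.0849 without replicate 3). Col12a1 was at -0.07 ± 0.29 (SE, FDR 0.905) in CD26- and -0.06 ± 0.29 (SE, FDR 0.91) in CD26+ NFs. The sign of both Col12a1 values turned when single libraries were left out. Col19a1, another FACIT chain, had 1 to 5 counts per CD26- control library and 4 to 15 per CD26- CM library, the group through which it passed the filter. Its CM call in CD26- NFs (FDR 0.0372) was lost with DESeq2, with no filter on low counts, with the luminal covariate (FDR 0.092) and without replicate 1, 2 or 3.

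**Figure D3:**
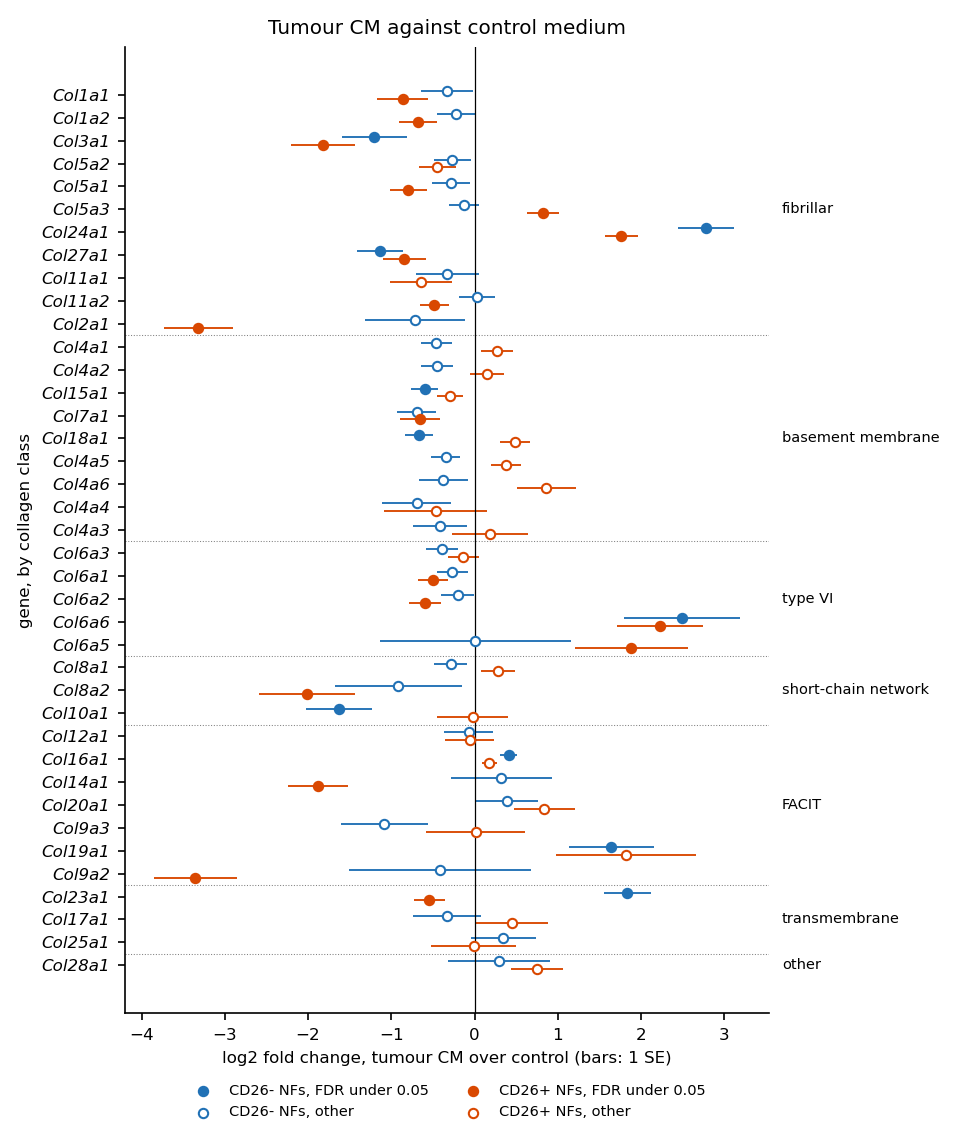
Log2 fold change of tumour CM over control medium for the 39 tested collagen genes, ordered by class and by level, in CD26- NFs (blue) and CD26+ NFs (orange), with bars of 1 SE and filled points for an FDR under 0.05. Col24a1 and Col6a6 lie right of 0 with filled points in both cell types, and Col3a1 and Col27a1 lie left of 0. Col6a6 passed the count filter only through CM libraries.

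Whether CM acted differently on the 2 cell types was tested as the difference between the CM effects, the effect in CD26+ NFs minus that in CD26- NFs. It passed for 4 of 39 collagen genes, 2 higher (4.53% of all genes) and 2 lower (3.01% of all genes), and 2 of the 4 also lay beyond a log2 difference of 2 or -2 (0.392% of all genes). Without the 4 genes that passed the filter through 1 group, 2 were higher and 1 lower of 35, and 1 lay beyond the log2 limit. Leaving out replicate 1, 2, 3, 8, 10, 12, 14 or 17 gave 2 genes, and leaving out replicate 11 gave 1. Over all genes the 1075 calls became 454 to 834 in the former fits and 339 in the latter.

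Col23a1 kept its call in every fit that left out 1 library. It rose in CD26- NFs from 2.61, 3.25 and 2.71 CPM to a lowest, median and highest of 7.53, 10.7 and 11.8 CPM (1.83 ± 0.28, SE, FDR 0.000554). In CD26+ NFs it went from 50.5, 55.9 and 46.9 CPM to 26.2, 29.7 and 52.4 CPM, with some overlap (-0.54 ± 0.19, SE, FDR 0.0373, lost without replicate 10, 11, 12, 13, 14, 16 or 17, FDR up to 0.13, and with only the 2 groups fitted, FDR 0.0979). The difference was -2.38 ± 0.34 (SE, FDR 0.00197). Col18a1 fell in CD26- NFs as given above and had 112, 86.7 and 103 CPM in CD26+ control and 95.5, 138 and 194 CPM as lowest, median and highest in CD26+ CM libraries (0.49 ± 0.18, SE, FDR 0.0501, and past the threshold as higher with DESeq2, with scaling without the collagen genes, with no filter on low counts, with the luminal covariate and without replicate 4, 6, 14 or 18), a difference of 1.16 ± 0.25 (SE, FDR 0.0116) that missed the threshold without replicate 11 (FDR 0.0584).

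Col5a3 did not pass in CD26- NFs (-0.13, FDR 0.68) and rose in CD26+ NFs from 377, 442 and 473 CPM to 499.8, 779.9 and 874 CPM (0.82 ± 0.19, SE, FDR 0.00353), a difference of 0.95 ± 0.26 (SE, FDR 0.033) that was lost without any one of replicates 1, 2, 3, 8, 10, 11, 12, 13, 14, 15 and 17 (FDR up to 0.094). Col2a1, which passed the filter only through CD26+ control libraries, differed by -2.60 ± 0.75 (SE, FDR 0.043), and that call was lost on leaving out replicate 1, 2, 3, 5, 6, 7, 8, 9, 10, 11, 12, 14, 15, 16 or 17 (FDR up to 0.0961). The upstream 250 bases of Col23a1 and Col5a3 are shown because their differences had opposite signs, written as above (Col23a1 chr11:51289670-51289919, plus strand, and Col5a3 chr9:20815068-20815317, minus strand, neither overlapping an annotated exon):

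Col23a1: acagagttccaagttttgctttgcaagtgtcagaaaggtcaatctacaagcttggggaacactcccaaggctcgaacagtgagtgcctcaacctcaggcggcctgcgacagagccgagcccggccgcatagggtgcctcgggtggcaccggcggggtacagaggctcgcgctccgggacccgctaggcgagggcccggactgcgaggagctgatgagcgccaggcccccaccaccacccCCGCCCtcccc
Col5a3: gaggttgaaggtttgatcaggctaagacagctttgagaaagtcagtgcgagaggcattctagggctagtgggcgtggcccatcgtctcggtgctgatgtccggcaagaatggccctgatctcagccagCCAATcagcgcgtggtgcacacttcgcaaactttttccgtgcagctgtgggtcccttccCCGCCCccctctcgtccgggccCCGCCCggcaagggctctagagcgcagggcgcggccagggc

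Col23a1 held GGGCGG as its reverse complement, and Col5a3 held CCAAT and a pair of GGGCGG matches. Col18a1, which had a larger positive difference than Col5a3, is not printed because its windows overlap an annotated exon.

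With the CM line as a replicate block, 16 of 39 genes passed for the difference instead of 4, while the share of all genes past the FDR went from 7.53% to 17.6%. Among them were Col3a1 at -0.65 ± 0.13 (SE, FDR 0.00601), Col1a1 at -0.49 ± 0.16 (SE, FDR 0.0427), Col1a2 at -0.45 ± 0.12 (SE, FDR 0.0196), Col14a1 at -2.21 ± 0.27 (SE, FDR 0.000322) and, with the opposite sign, Col4a1 at 0.76 ± 0.14 (SE, FDR 0.00298). Without the block Col3a1 was at -0.62 ± 0.57 (SE, FDR 0.544) and Col14a1 at -2.20 ± 0.71 (SE, FDR 0.0626). The block treats the 6 lines as fixed.

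**Figure D4:**
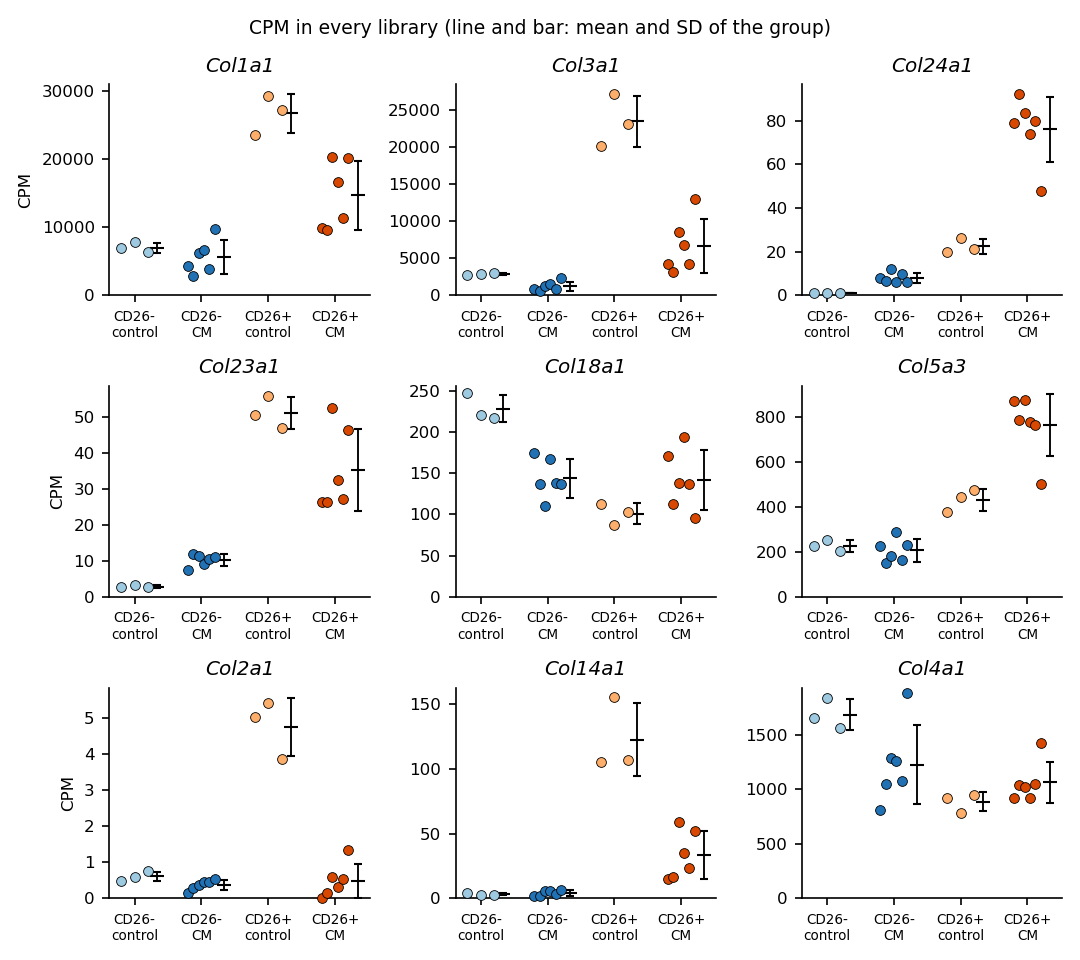
CPM of 9 collagen genes in every library, one point per library, by group, with the group mean and SD as a line and bar beside the points (linear axes from 0). Col24a1 is higher in CM in both cell types, Col3a1 is lower in both, and Col23a1 is higher in CM in CD26- NFs, 7.53 CPM or more, against 3 controls of at most 3.25 CPM.

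The 6 tumour lines were then compared with each other. Of all 13344 genes tested for a line effect shared by both cell types 6.56% passed. In the 12 CM libraries 18 of 31 tested collagen genes were past the FDR. Fibrillar genes gave 6 of 10, basement membrane genes 4 of 7, type VI genes 3 of 4, short-chain network genes 2 of 3 and FACIT genes 2 of 3. Col28a1, outside these classes, passed too, and none of the 3 transmembrane genes passed. Leaving out a single library gave 12 to 21 genes (360 to 2060 over all genes, 876 with every library), the lowest count without replicate 6, 8, 15 or 17, and leaving out both 13-MCB-138 libraries gave 17 of 33 tested (1420 over all genes).

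The 3 smallest p-values were those of Col3a1 (FDR 0.000971), Col11a1 (FDR 0.00133) and Col5a2 (FDR 0.00152), all fibrillar. For Col3a1 the CD26- libraries had 794 CPM with CM of 13-MCB-17, 617 with 10-SJK-221, 1296 with 18-MCB-12, 1569 with 13-MCB-44, 848 with 13-MCB-90 and 2278 with 13-MCB-138. In the same order of lines the CD26+ libraries had 4276, 3112, 8519.8, 6775, 4162 and 12952 CPM. The highest line, 13-MCB-138, and the lowest, 10-SJK-221, were the same in both cell types. All 12 libraries lay below the controls of their own cell type.

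Col11a1 was lowest with 13-MCB-17, at 8.73 CPM in CD26- and 6.90 CPM in CD26+ NFs, and highest with 13-MCB-138, at 27.3 and 29.3 CPM, above all controls of both cell types. Col5a2 had the same lowest and highest lines, from 2415 to 4800.0 CPM in CD26- and from 2969.8 to 5876 CPM in CD26+ NFs. Neither gene passed in the test of CM against control, where the lines enter the spread.

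Among the 18 genes past the FDR, 13-MCB-138 gave the highest CPM in 15 genes in CD26- NFs and in 12 genes in CD26+ NFs, and in 12 genes in both cell types. The test that picked these genes asks for a line effect shared by both cell types, so this agreement is no separate support. The lowest values fell mainly to 10-SJK-221 (8 genes in CD26- and 7 in CD26+ NFs) and 13-MCB-17 (6 and 7 genes). The exceptions included Col7a1, highest with 13-MCB-44 in both cell types (315 CPM in CD26- and 150.3 CPM in CD26+ NFs), and Col6a6, highest with 10-SJK-221 in both. By line the summed CPM of the osteoblast list was also highest with 13-MCB-138 in both cell types, at 99.0 in CD26- and 239.7 in CD26+ NFs, and the luminal list was highest with 13-MCB-44, at 3675 and 1175. With that line, where Col7a1 was highest, the basal list (559 and 329.8) and the Schwann list (30.6 and 10.1) were also highest in both cell types. Their part in the line differences was not tested. Col24a1, the chain that rose, did not pass among lines (FDR 0.17), and its lowest CM libraries were those of 13-MCB-138 in both cell types (6.10 and 48.0 CPM).

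**Figure D5:**
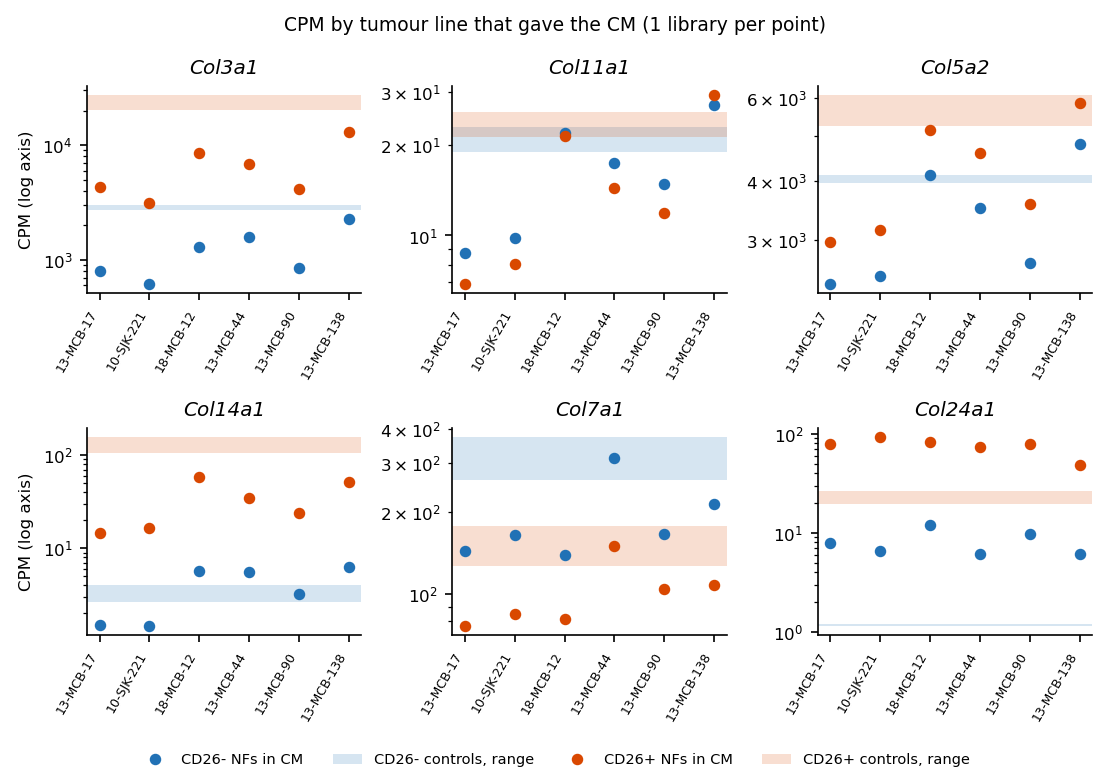
CPM (log axis) of 6 collagen genes by the tumour line that gave the CM, 1 library per point, in CD26- (blue) and CD26+ NFs (orange), with bands for the range of the 3 controls of each cell type. Col3a1 is highest with 13-MCB-138 in both cell types, at 2278 and 12952 CPM, while Col7a1 is highest with 13-MCB-44.

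Chains of one molecule kept ratios of counts that differed between groups to different degrees. These ratios use counts not divided by length and are compared between groups only. The count of Col1a1 over that of Col1a2 was 1.48 ± 0.107 in CD26- control (SD, n = 3), 1.33 ± 0.202 in CD26- CM (n = 6), 1.58 ± 0.0114 in CD26+ control (n = 3) and 1.37 ± 0.122 in CD26+ CM libraries (n = 6). For Col4a1 over Col4a2 the group means lay between 1.55 and 1.68, and for Col6a1 over Col6a2 between 1.40 and 1.62. The type V pair stood apart, with Col5a1 over Col5a2 at 0.446 ± 0.0454 in CD26- control, 0.438 ± 0.0361 in CD26- CM, 0.865 ± 0.0471 in CD26+ control and 0.685 ± 0.0299 in CD26+ CM libraries, where no CD26+ library overlapped a CD26- one. Col8a1 over Col8a2 was 8.74 ± 1.72 in CD26- and 1.05 ± 0.189 in CD26+ control libraries, and in CM it ran from 5.43 to 80.9 in CD26- and from 1.94 to 25.6 in CD26+ libraries, which overlapped. The highest of these values rested on 9 Col8a2 counts, in replicate 4. The ratios are descriptions with no test, and for Col9a2 over Col9a3 and Col4a5 over Col4a6 1 chain of the pair was too low for a ratio to be read.

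Genes that process collagen were mostly higher in CD26+ NFs. Of 30 tested genes for chain modification, folding, export, propeptide cleavage and crosslinking, 24 were up and 1 was down in CD26+ NFs without CM, and 25 were up and 3 down with CM, against 25% of all genes higher and 25.4% lower in control medium and 29.3% each in CM, with median log2 fold changes of 0.89 and 0.85. Serpinh1, the collagen chaperone HSP47, was higher by 1.27 ± 0.14 (SE, FDR 1.49e-06) in control medium on the log2 scale. P4ha2, a prolyl 4-hydroxylase subunit that stabilises the triple helix, gave 1.77 ± 0.23 (SE, FDR 7.68e-06), and Plod1, a lysyl hydroxylase, gave 1.27 ± 0.14 (SE, FDR 1.09e-06). Adamts2, which removes the amino-terminal propeptide, was at 1.89 (FDR 2.3e-07) and Tll1, a propeptidase of the carboxy-terminal end, at -2.10 (FDR 1.07e-07). In CM against control medium 1 gene was higher and 12 were lower in CD26+ NFs, and 2 were higher and 5 lower in CD26- NFs, against 15.2% of all genes higher and 13.4% lower in CD26+ and 7.88% and 7.28% in CD26- NFs. Pcolce2, an enhancer of propeptide cleavage, fell by 2.09 ± 0.22 (SE, FDR 3.56e-06) in CD26+ NFs and by 1.00 ± 0.21 (SE, FDR 0.0046) in CD26- NFs on the log2 scale, and its difference in CM effect was the single one of the list to pass (-1.09, FDR 0.0407). Adamts14, another aminopropeptidase, rose by 2.55 ± 0.36 (SE, FDR 6.16e-05) in CD26+ and 1.14 ± 0.35 (SE, FDR 0.0343) in CD26- NFs.

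Proteoglycans and related proteins that bind fibrils were mainly higher in CD26+ NFs, and part of them rose in CM. In CD26+ against CD26- NFs 6 of 9 tested were up in control medium and 8 in CM, none down, where 25% and 29.3% of all genes were up. In CM against control 4 of 9 were higher in each cell type (15.2% of all genes in CD26+ and 7.88% in CD26- NFs), and 1, Dpt, was lower in CD26+ NFs (-0.64, FDR 0.0032). Dcn (decorin), which binds type I fibrils, rose by 3.19 ± 0.31 (SE, FDR 1.48e-06) in CD26+ and 2.64 ± 0.30 (SE, FDR 8.75e-05) in CD26- NFs. Lum (lumican) rose by 2.38 (FDR 0.00154) in CD26- and 1.62 (FDR 0.00465) in CD26+ NFs. Of 10 tested collagen receptors, CD26+ NFs had 5 up and 5 down in control medium (25% and 25.4% of all genes). The integrin chains split, with Itga11 at 1.56 ± 0.28 (SE, FDR 0.000164) and Itga2 at -2.62 ± 0.24 (SE, FDR 1.9e-07), and so did the discoidin domain receptors, with Ddr2 at 1.10 (FDR 4.16e-05) and Ddr1 at -0.54 (FDR 0.0205).

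The remaining members are given by name. Of the tested genes, 7 passed in none of the 4 group comparisons of the main fit, namely Col5a2, Col8a1, Col9a3, Col11a1, Col12a1, Col17a1 and Col20a1. Of these Col8a1, a short-chain network chain, was at 0.38 ± 0.17 (SE, FDR 0.059) for CD26+ against CD26- NFs in CM and passed there with the replicate block (0.37 ± 0.08, SE, FDR 0.00123), with DESeq2, with no filter on low counts, with scaling without the collagen genes and without replicate 4, 7, 14, 15 or 17. With 1 library left out, Col11a1 and Col20a1 passed for CM in CD26+ NFs (without replicate 18) and Col17a1 for the cell types in control medium (without replicate 14). Col12a1 passed in CM under the same 4 alternatives as Col8a1, and Col5a2, Col12a1 and Col17a1 passed in control medium when only the 2 groups compared were fitted. Col17a1, a hemidesmosome chain, ran from 2.55 to 24.3 CPM over the 18 libraries and overlapped between all groups. The 5 genes under the count filter were Col6a4, Col9a1, Col13a1, Col22a1 and Col26a1, with at most 12 counts in any library. Of these Col9a1 had 1 count at most in any library.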

How the data were processed

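Raw gene counts of 18 libraries were used. Per the labels and the submitters' processing notes, the authors aligned single-end reads of poly(A) RNA (stranded kit) to GRCm38 with HISAT2 2.1.0 and counted them with HTSeq, and the deposited table holds unnormalised counts per gene. The strand setting and the annotation release are not given in the sources used here. Libraries held 9725723 to 14585349 counts, and 1 row without a gene name held 0 counts and was left out.

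Counts were scaled with TMM factors and filtered with filterByExpr in edgeR 4.0.16 (R 4.3.3, limma 3.58.1), which left 14273 genes. One quasi-likelihood fit over 4 group means gave the 2 CM effects, the 2 cell type comparisons and the difference in CM effect, each with Benjamini-Hochberg adjustment over all genes tested (FDR, threshold 0.05) and, beside it, the count beyond a log2 fold change of 2 or -2. SE is the log2 fold change divided by the square root of F. Line effects were tested over 5 line terms with cell type as a covariate in the 12 CM libraries (13344 genes). CPM uses library totals times TMM factors, and CPM per kb divides by merged exon length of GENCODE M21. The tests were checked on simulated counts with a fixed spread for every gene and, in the group fits, no differences between lines. The check therefore does not cover the spread that the lines add to the CM groups. Alternatives were DESeq2 1.42.0, other scalings, other filters, an FDR under 0.01, fits of the 2 groups alone, the line as a replicate block, leaving out each library and, chosen after seeing the data, luminal markers as a covariate.

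Replicate numbers as such pair no samples, but the line gave CM to 1 library of each cell type. Deviations from the group means correlated between the cell types at 0.284 to 0.449 in the 6 lines, over the limit of 0.1 in every line, and the largest correlation of each CD26- library with a CD26+ library of another line was 0.0504 to 0.28, over that limit in 5 lines but below the same-line value in each, so lines were taken to pair the CM libraries. The labels give no batch. No pair of libraries in a group was alike within sampling noise (smallest chi-square per degree of freedom 3.22 over 36 pairs).

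Members with values by library were the 5 of highest mean CPM, those past the FDR for the difference, those past the FDR and the log2 limit with at least 1 CPM in a group, those with the smallest p in a class in each direction, and the 3 with the smallest p among lines. Col4a1 by library, Col7a1 and Col24a1 by line, and the processing, proteoglycan and receptor genes named as examples were chosen after their values were seen. The collagen classes, marker lists and pathway lists were chosen with earlier results of these data known. Promoter sequences came from RefSeq (GRCm38.p6) for 35 of the 44 genes. The full genotype of the tumour model is not reported here.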

Additional observations from a re-analysis of the deposited data

Results flagged for a closer look

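In CD26+ NFs in tumour CM, 1 library of 6 lay far from the others for 2 collagen genes. Col5a3, a type V chain, had 499.8 CPM in replicate 18 (CM of 13-MCB-138), where the other 5 libraries had 761 to 874 CPM. Col6a5, an alternative type VI chain, had 5.31 CPM in replicate 13 (CM of 13-MCB-17), where the others had 0.536 to 1.74 CPM. These were 2 of 52 groups of libraries checked, over 26 genes, and chance alone marks about 5% of such groups. The effect of tumour CM differed between CD26+ and CD26- NFs for 4 of 39 collagen genes (7.53% of all genes) by the test of the difference itself: Col18a1 by 1.16, Col5a3 by 0.95, Col23a1 by -2.38 and Col2a1 by -2.60 on the log2 scale, the last a gene that passed the count filter only through CD26+ control libraries. The Col5a3 call was lost without any one of 11 libraries, the Col2a1 call without any one of 15 and the Col18a1 call without replicate 11.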

How the results depend on the processing

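With DESeq2, RLE or upper-quartile scaling, scaling without the collagen genes, either other filter or fits of the 2 groups alone, each count of collagen genes past the FDR kept within 1.5 times its main value where that fit could be made. At an FDR under 0.01 the counts fell to 3 for CM in CD26- NFs, 7 for CM in CD26+ NFs, 1 for the difference and 11 for the lines, while those over all genes fell from 2164, 4087, 1075 and 876 to 830, 2347, 239 and 196. With the CM line as a replicate block the difference rose from 4 to 16 genes (7.53% to 17.6% of all genes), and the comparison of the cell types in CM went from 25 to 29 (58.6% to 63% of all genes). With the luminal markers as a covariate the counts fell to 4 in control medium, 6 in CM and 2 for the difference (1.5%, 2.96% and 5.64% of all genes). For CM in CD26- NFs the count went from 10 to 7 (15.2% to 11% of all genes), and in CD26+ NFs it stayed at 18 (28.6% to 30.3%). Leaving out 1 library gave 3 to 13 genes for CM in CD26- NFs, 8 to 23 for CM in CD26+ NFs and 1 to 6 for the difference, where those over all genes ran from 825 to 2748, 2756 to 4971 and 339 to 2345. For the genes named with values, 1236 of 1347 values with 1 library left out kept direction and side of the threshold, 86 lost the threshold, 9 gained it and 16 turned sign, and under the other alternatives 624 of 684 kept both, 42 lost it, 14 gained it and 4 turned sign. With the covariate Col18a1 in control medium became 0.0168, and in CM Col7a1 became 0.557 and Col25a1 1.40. The Col12a1 difference became -0.0157 with upper-quartile scaling and ran from -0.118 to 0.236 when 1 library was left out, where the Col12a1 CM effects ran from -0.293 to 0.0608 in CD26- and from -0.168 to 0.0625 in CD26+ NFs. The cause of these changes was not tested. Low counts limit Col2a1, Col4a3, Col4a4, Col6a5, Col6a6, Col9a2, Col19a1 and Col25a1.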
